A study of Homo sapiens with 6 samples.

Results

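The insulin-like growth factor (IGF) binding proteins and the IGF and insulin receptors were examined in EA.hy926 cells kept at low oxygen. The 10 genes were taken by symbol and not by their measured values, though earlier results of these data were known. They are IGFBP1 to IGFBP7, IGF1R, IGF2R and INSR. All 10 had a row in the deposited table of 22153 genes. Polyadenylated RNA had been sequenced from 3 libraries of hypoxic cells (1% oxygen for 8 h) and 3 libraries of normoxic cells (20% oxygen). All 6 libraries came from the same line, grown in high-glucose medium with fetal bovine serum, which itself contains IGFs and binding proteins. EA.hy926, labelled endothelial, is a single hybrid line that arose from the fusion of a human umbilical vein endothelial cell with A549 lung carcinoma cells.

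IGF1 and IGF2 are peptide hormones that drive growth and survival through IGF1R, a receptor tyrosine kinase closely related to the insulin receptor INSR. IGF2R, the cation-independent mannose 6-phosphate receptor, has no kinase domain. It removes IGF2 from the cell surface and carries newly made lysosomal enzymes. The secreted IGF-binding proteins hold IGFs away from these receptors or deliver them when a protease cuts the binding protein, and IGFBP1 and IGFBP3 are known hypoxia-responsive genes in several human cell types.

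IGFBP3 was higher in every hypoxia library, but the difference did not pass the test across all genes, and none of the other tested members passed either. Values are deposited reads divided by a size factor, which removes differences in depth between libraries, and a gene's level per exon length is given on an FPKM scale. Of the 10 genes, 7 reached the filter of 1 FPKM in at least 3 libraries and were tested. None of the 7 passed limma (adjusted p below 0.05), beside 0.0977% of all 10237 genes tested. DESeq2 on the recovered reads called 1 of the 7, IGFBP3, beside 0.469% of the same 10237 genes (0.43% higher in hypoxia). Of the 20006 genes to which DESeq2 gave an adjusted p, it called 0.29% (0.26% higher and 0.03% lower in hypoxia). None of the 7 passed edgeR, beside 0.0674% of 13354 genes, all higher in hypoxia. Hypoxia and normoxia values were fully separate for 1 of the 7, again IGFBP3, which was higher, beside 7.48% of all genes tested (4.77% higher and 2.72% lower in hypoxia). The median log2 difference of the 7 was 0.02, and that of all genes tested was 0.0035. Bulk RNA cannot tell a change in RNA per cell from a change in the share of cells that express a gene.

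The libraries held 17226736 to 18652704 reads assigned to genes. Normoxia replicate 3 had reads in 16741 genes, against 18214 to 18858 in the other libraries. It was the highest library for 27.4% and the lowest for 28.2% of all genes tested, the largest share in both cases. As orientation, all 9 tested genes of a list of 10 known HIF (hypoxia-inducible factor) targets were higher in every hypoxia library, with a median log2 difference of 1.77. BNIP3, PGK1, LDHA and SLC2A1 passed limma, ADM (log2 difference 2.31) did not, and 8 of the 9 passed DESeq2. Of 12 endothelial markers, 10 reached the filter, among them PECAM1 and CDH5. EMCN and CLDN5 had at most 4 and 5 reads in any library. Of 7 epithelial markers, 4 reached the filter. KRT7, a keratin of simple epithelia, was abundant, averaging 28602 scaled reads in hypoxia and 32322 in normoxia. EPCAM and KRT19 had at most 19 and 20 reads in any library. Of 8 fibroblast and mural and 4 leukocyte markers, 2 and 1 reached the filter.

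**Figure D1:**
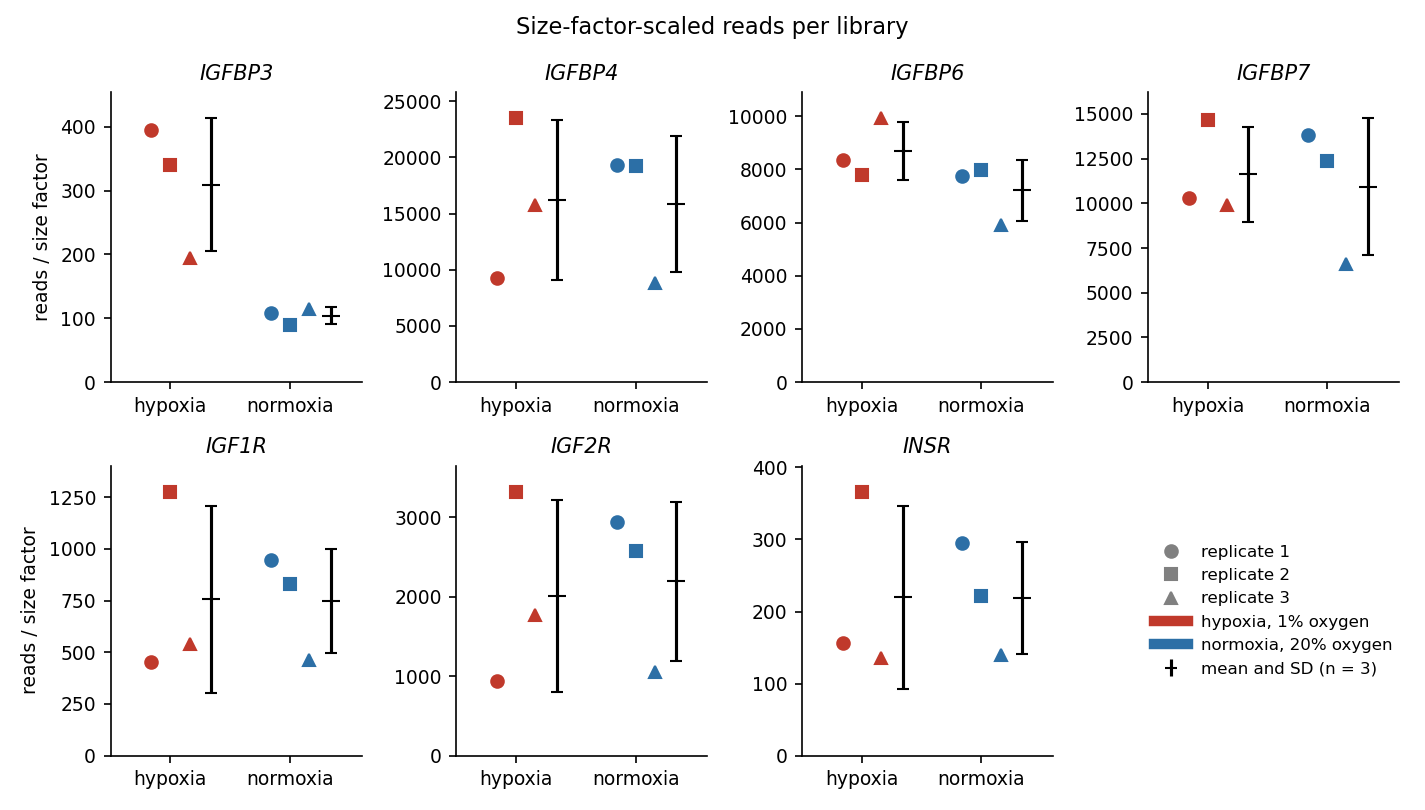
Size-factor-scaled reads of the 7 tested genes in each library (y axis, from 0), with hypoxia in red on the left and normoxia in blue on the right, symbols for replicate number, and black bars for the mean and SD of 3 libraries. The groups are apart for IGFBP3, at 194 to 394 in hypoxia and 89.0 to 115 in normoxia, and overlap for the other 6 genes.

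IGFBP3, the main IGF carrier of blood plasma, had 394, 340 and 194 scaled reads in hypoxia replicates 1, 2 and 3, against 108, 89.0 and 115 in normoxia replicates 1, 2 and 3. The lowest hypoxia library stood above the highest normoxia library. The group means were 309 ± 104 in hypoxia and 104 ± 13.3 in normoxia (SD, n = 3 each), a ratio of 2.98. The hypoxia libraries differed among themselves by 2.03-fold, the normoxia libraries by 1.29-fold. The limma log2 difference was 1.45 (SE 0.33, 95% interval 0.68 to 2.22, adjusted p = 0.612). Its unadjusted p of 0.00245 ranked 41st of 10237 genes, of which 2.69% had an unadjusted p below 0.05, and its log2 difference ranked 73rd from the top. DESeq2 gave 1.57 (95% interval 0.83 to 2.32, adjusted p = 0.0169), and edgeR 1.54 with an adjusted p of 0.564. Both intervals lie above 0.

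The IGFBP3 difference kept its direction whichever library was left out. The ratio of group means was lowest, 2.57, without hypoxia replicate 1 and highest, 3.53, without hypoxia replicate 3. Without a normoxia library it lay between 2.78 and 3.14. The gene spans 45912245 to 45921874 on the minus strand of chromosome 7 in GENCODE 29 (GRCh38), and none of its exons overlaps another annotated gene. It was measured on few reads, 204 to 380 in the hypoxia libraries and 94 to 122 in the normoxia libraries.

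IGFBP3 was a low transcript in both groups. Per exon length it averaged 3.79 ± 1.27 FPKM in hypoxia and 1.27 ± 0.163 FPKM in normoxia. This depended on the length assigned to the gene, since the length of its longest transcript, 2412 bases in place of 4571 bases of merged exons, gave 7.18 and 2.41 FPKM. The 2.98-fold ratio is the same on both lengths.

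Promoter windows from RefSeq (GRCh38.p14), running from 250 bases before to 50 bases after a start site, were found for 8 of the 10 genes (not for IGFBP1 and IGFBP7). They were searched on both strands for ACGTG and GCGTG, the core letters that HIF complexes are known to bind. IGFBP2 had 3 windows and the others 1 each. The motif was present in windows of IGFBP3, IGF2R, IGF1R and IGFBP2, and in 48.4% of all 35116 windows of the same length. Among the 18582 windows of genes with a row in the deposited table it was present in 58.3%. Both shares are per window, whereas the members are counted per gene. The windows of IGFBP4, IGFBP5, IGFBP6 and INSR held no match. Windows are shown for IGFBP3, whose groups stood apart, and for IGF2R and IGFBP4, whose groups overlapped, with matches to the core letters in capitals. They lie at chr7:45921223-45921522 (minus strand), chr6:159968832-159969131 (plus strand) and chr17:40443200-40443499 (plus strand).
IGFBP3: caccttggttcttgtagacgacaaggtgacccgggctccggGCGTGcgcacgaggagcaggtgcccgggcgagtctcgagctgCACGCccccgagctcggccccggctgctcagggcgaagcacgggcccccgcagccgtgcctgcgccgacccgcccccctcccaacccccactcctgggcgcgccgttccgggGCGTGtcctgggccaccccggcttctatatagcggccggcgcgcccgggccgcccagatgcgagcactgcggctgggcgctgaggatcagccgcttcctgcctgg
IGF2R: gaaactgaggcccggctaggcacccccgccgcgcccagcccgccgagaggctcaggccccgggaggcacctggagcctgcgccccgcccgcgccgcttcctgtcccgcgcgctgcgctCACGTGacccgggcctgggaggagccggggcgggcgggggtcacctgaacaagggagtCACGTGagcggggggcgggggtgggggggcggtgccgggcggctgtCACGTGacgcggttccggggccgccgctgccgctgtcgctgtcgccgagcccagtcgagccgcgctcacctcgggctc
IGFBP4: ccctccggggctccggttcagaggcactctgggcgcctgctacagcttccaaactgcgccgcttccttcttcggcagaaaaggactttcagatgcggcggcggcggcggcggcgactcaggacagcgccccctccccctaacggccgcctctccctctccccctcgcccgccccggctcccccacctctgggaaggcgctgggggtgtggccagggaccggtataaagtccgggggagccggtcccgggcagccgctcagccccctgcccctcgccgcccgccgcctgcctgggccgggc
IGFBP3 held GCGTG at 3 separate places and on both strands, at positions -209, -167 and -55 relative to the start site. Of all windows, 7.39% held the core letters at 3 or more separate places. In IGF2R the 3 matches were each the palindrome CACGTG, which reads as ACGTG on both strands and is also the E-box bound by MYC and related factors. CACGTG was present in 7.26% of all windows, and at 3 or more places in 0.0940%. IGF1R held 5 matches, each at a separate place. Of all windows, 1.98% held 5 or more matches, a count in which a palindrome is counted on each strand. The share with 5 or more separate places was not computed. The thresholds of 3 places and 5 matches equal the counts found in these windows and were not set in advance. Windows with matches therefore belonged both to the gene whose groups stood apart and to IGF1R and IGF2R, whose groups overlapped.

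IGFBP4, IGFBP6 and IGFBP7 made up almost the whole pool of IGFBP transcripts. IGFBP4, an inhibitor of IGF action that the protease PAPP-A removes, had 9299, 23469 and 15805 scaled reads in hypoxia replicates 1, 2 and 3, against 19352, 19263 and 8832 in normoxia replicates 1, 2 and 3. The groups overlapped: hypoxia replicates 1 and 3 lay within the normoxia range, hypoxia replicate 2 lay above every normoxia library, and normoxia replicate 3 was the lowest of all. The log2 difference was 0.02 (95% interval -0.95 to 0.99, adjusted p = 1.00), so changes of nearly 2-fold in either direction lie inside the interval. Its sign turned in 5 of 17 alternatives.

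IGFBP6, which prefers IGF2 over IGF1, was the steadiest of these transcripts. It had 8355, 7796 and 9918 scaled reads in hypoxia, against 7768, 7981 and 5891 in normoxia. Hypoxia replicate 2 lay between normoxia replicates 1 and 2, while the other hypoxia libraries lay above all normoxia libraries. The log2 difference was 0.27 (95% interval -0.21 to 0.76, adjusted p = 1.00). It was positive in all 17 alternatives, between 0.13 and 0.35.

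IGFBP7, a low-affinity binding protein abundant in vascular endothelium, had 10305, 14675 and 9904 scaled reads in hypoxia, against 13829, 12369 and 6605 in normoxia. Here too hypoxia replicate 2 was highest and normoxia replicate 3 lowest. The log2 difference was 0.14 (95% interval -0.60 to 0.87, adjusted p = 1.00). Of its merged exon length, 270 bp (14.0%) overlap POLR2B on the opposite strand, which had 6510 reads over the 6 libraries beside 67650 for IGFBP7. Whether counting used strand was not stated, so reads in that overlap cannot be assigned. Its antisense gene IGFBP7-AS1, overlapping by 94 bp, had 13 reads in all.

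Per exon length, IGFBP4 averaged 412 ± 180.5 FPKM in hypoxia and 402 ± 154 FPKM in normoxia, IGFBP6 361 ± 45.8 and 300.02 ± 47.8, and IGFBP7 337 ± 76.8 and 317 ± 111. These neighbours in the order did not differ beyond their spread, and all were among the 150 highest of the 10237 genes tested. The order depended on the length used. On longest-transcript length IGFBP7 was highest, at 456 ± 104 FPKM in hypoxia and 429 ± 150 in normoxia. IGFBP6 then averaged 413 and 343 FPKM, and IGFBP4 stayed at 412 and 402. The shares that follow are on merged exon length. IGFBP4 held 26.7%, 44.2% and 36.4% of the summed IGFBP level in hypoxia replicates 1, 2 and 3, against 40.4%, 41.5% and 33.9% in normoxia replicates 1, 2 and 3. IGFBP6 held 24.0% to 39.1% in hypoxia and 26.5% to 37.0% in normoxia, and IGFBP7 30.4% ± 3.95 in hypoxia and 30.7% ± 2.04 in normoxia. The shares of these 3 genes overlapped between the groups. IGFBP3 held 0.544%, 0.308% and 0.215% in hypoxia, against 0.109%, 0.0922% and 0.212% in normoxia. Its share in hypoxia replicate 3 lay just above that in normoxia replicate 3, the library in which the sum was lowest.

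**Figure D2:**
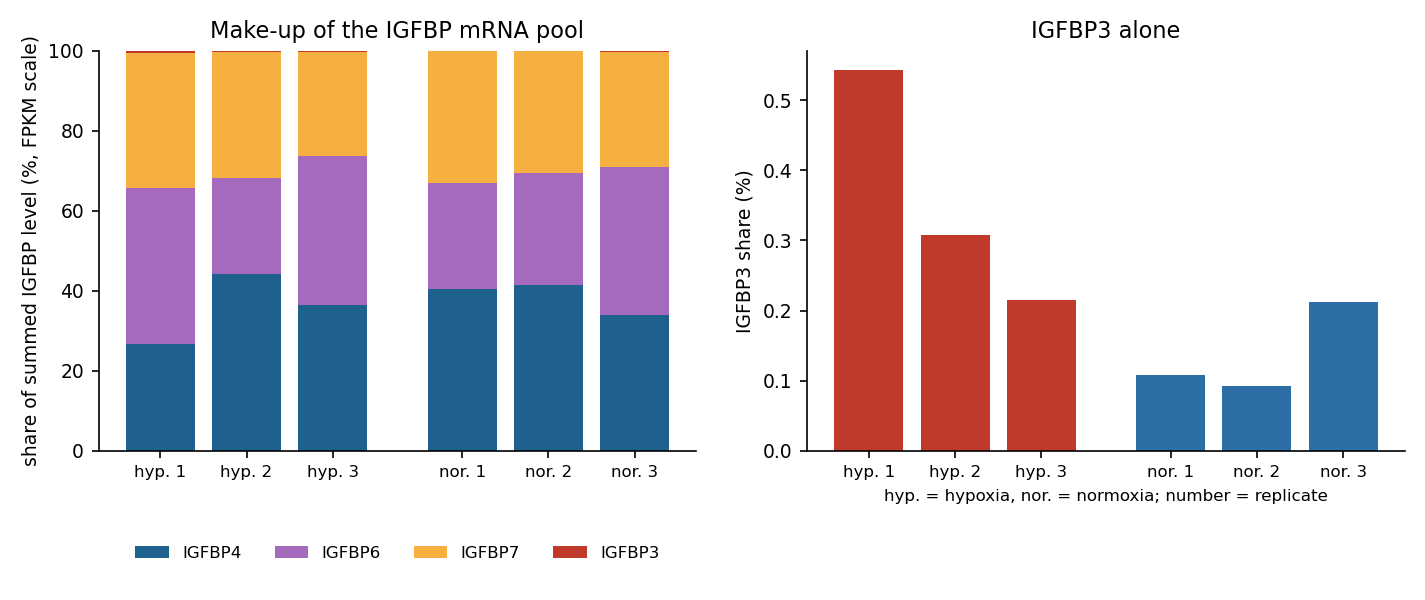
Share of the summed FPKM-scale level of IGFBP1 to IGFBP7 held by each gene in every library (left, stacked to 100%; IGFBP1, IGFBP2 and IGFBP5 are too low to be seen), and the share of IGFBP3 alone on its own axis (right), with hypoxia left of normoxia. IGFBP4, IGFBP6 and IGFBP7 fill nearly the whole bar, and IGFBP3 reaches at most 0.544%.

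The remaining binding proteins were at the edge of detection. IGFBP1, the insulin-suppressed binding protein made mainly by liver and decidua, had 0, 1 and 3 reads in hypoxia, against 0, 0 and 0 in normoxia. No reads among 52922122 in the normoxia libraries allows up to 0.0567 CPM, for counting error only. IGFBP2, the second most abundant binding protein of plasma, had 1, 1 and 3 reads in hypoxia, against 3, 5 and 0 in normoxia. IGFBP5, which binds extracellular matrix, had 1, 0 and 0 reads in hypoxia, against 1, 2 and 0 in normoxia. A difference between groups was not detectable at this depth for any of the 3 genes.

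The 4 genes IGFBP1, IGFBP3, IGFBP2 and IGFBP5 form close pairs in the genome, each with tails facing each other. IGFBP1 and IGFBP3 are 18576 bp apart on chromosome 7 and IGFBP2 and IGFBP5 7668 bp apart on chromosome 2, with 0 protein-coding genes between them. Within the chromosome 7 pair, IGFBP3 was measured at 204 or more reads in each hypoxia library while IGFBP1 had at most 3. Both genes of the chromosome 2 pair had at most 5 reads in any library. IGFBP4, IGFBP6 and IGFBP7 lie apart from them, on chromosomes 17, 12 and 4.

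The receptors did not differ between hypoxia and normoxia beyond the spread of the libraries. IGF1R had 451, 1275 and 540 scaled reads in hypoxia replicates 1, 2 and 3, against 945, 830 and 464 in normoxia replicates 1, 2 and 3. Hypoxia replicate 2 was the highest of all libraries and the other hypoxia libraries were close to normoxia replicate 3. The log2 difference was -0.07 (95% interval -1.11 to 0.97, adjusted p = 1.00).

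IGF2R had 935, 3316 and 1771 scaled reads in hypoxia, against 2941, 2578 and 1054 in normoxia. Its hypoxia libraries spanned 3.54-fold, the widest within-group range among the tested members. The log2 difference was -0.18 (95% interval -1.41 to 1.06, adjusted p = 1.00). INSR had 157, 366 and 136 scaled reads in hypoxia, against 294, 222 and 140 in normoxia, and its log2 difference was -0.07 (95% interval -1.12 to 0.99, adjusted p = 1.00). The IGF2R interval takes in 2-fold changes in both directions, and those of IGF1R and INSR a 2-fold decrease and an increase of just under 2-fold. The sign turned in 5 of 16 alternatives for IGF1R, 3 of 17 for IGF2R and 4 of 13 for INSR.

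In order of level per exon length, IGF2R averaged 6.30 ± 3.79 FPKM in hypoxia and 6.87 ± 3.14 in normoxia, IGF1R 3.03 ± 1.82 and 2.997 ± 1.01, and INSR 1.18 ± 0.682 and 1.17 ± 0.414. This order held in each of the 6 libraries. On merged exon length, IGFBP3 stood beside INSR in normoxia, where their means differed by less than their spread, and beside IGF1R in hypoxia. This placement depended on the length used. On longest-transcript length, IGFBP3 averaged 7.18 ± 2.40 FPKM in hypoxia, between IGF2R (8.00 ± 4.81) and IGF1R (3.46 ± 2.07). In normoxia it averaged 2.41 ± 0.310 FPKM, between IGF1R (3.41 ± 1.15) and INSR (1.37 ± 0.483). The ratio of INSR to IGF1R was 0.394 ± 0.0643 in hypoxia and 0.392 ± 0.0315 in normoxia. The ratio ranged from 0.336 to 0.463 over the libraries, while IGF1R itself ranged 2.83-fold. The summed binding proteins stood 122 ± 41.5 times above the summed receptors in hypoxia and 96.4 ± 14.4 times in normoxia.

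**Figure D3:**
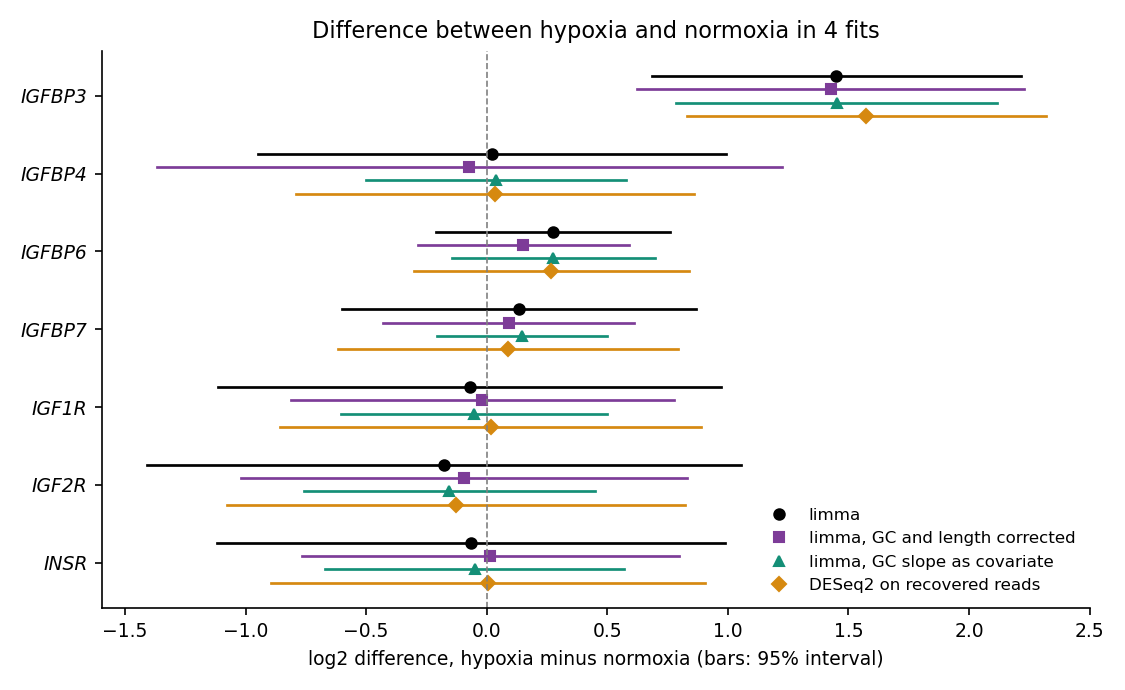
Log2 difference of hypoxia minus normoxia (x axis) for the 7 tested genes in 4 fits, with 95% intervals as horizontal bars. IGFBP3 lies between 1.43 and 1.57 with intervals above 0 in all 4 fits, and the intervals of the other 6 genes include 0.

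Of the 7 tested members, 5 shared a pattern across libraries that did not follow oxygen. IGFBP4, IGFBP7, IGF1R, IGF2R and INSR each had their 3 highest values in hypoxia replicate 2 and normoxia replicates 1 and 2. The same 3 libraries were highest for 21.2% of all genes tested. IGFBP3 and IGFBP6 did not have this pattern. The endothelial marker sum (12 genes, FPKM scale) was 611, 1619 and 941 in hypoxia replicates 1, 2 and 3, against 1166, 984 and 531 in normoxia replicates 1, 2 and 3, so its 3 highest libraries were the same. The epithelial sum (6 of 7 markers) ran the other way, at 963, 620 and 767 in hypoxia and 707, 695 and 1124 in normoxia. Both sums are set mainly by their most abundant genes, and not every marker followed. PECAM1, CDH5, VWF, KDR, TIE1 and ESAM had the same 3 highest libraries as the endothelial sum, while TEK, ERG, CD34 and ENG did not. MUC1 did not follow the epithelial sum, being lowest in normoxia replicate 3. The fibroblast and mural sum was 5.17 to 6.33 in hypoxia and 4.38 to 6.68 in normoxia, and the leukocyte sum 1.11 to 2.85 and 0.507 to 3.23.

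The slope on GC content was positive in hypoxia replicate 2 and normoxia replicates 1 and 2, and negative in the other libraries. It was fitted to each gene's log2 level minus its mean over the 6 libraries. This slope was -0.14, 0.25 and -0.12 per 10 percentage points in hypoxia replicates 1, 2 and 3, against 0.33, 0.08 and -0.40 in normoxia replicates 1, 2 and 3. The part of cell makeup and of GC content in the spread of these genes was not tested. With each library's GC slope as a covariate, an alternative chosen after seeing the data, the SE fell to 0.23 for IGFBP4, against 0.42 in the fit without it. It was 0.24 against 0.45 for IGF1R, 0.26 against 0.53 for IGF2R, 0.27 against 0.46 for INSR and 0.15 against 0.32 for IGFBP7. The log2 differences in that fit were between -0.16 and 0.15 for these 5 genes, and none passed. The SE also fell for IGFBP3, to 0.29 against 0.33, and for IGFBP6, to 0.18 against 0.21. The slopes were computed from the levels in these same libraries, so a smaller SE for genes that follow them was built in. IGFBP3 stood at 1.45 (adjusted p = 0.126) in the same fit, and at 1.43 (adjusted p = 0.716) after correction for GC content and exon length.

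**Figure D4:**
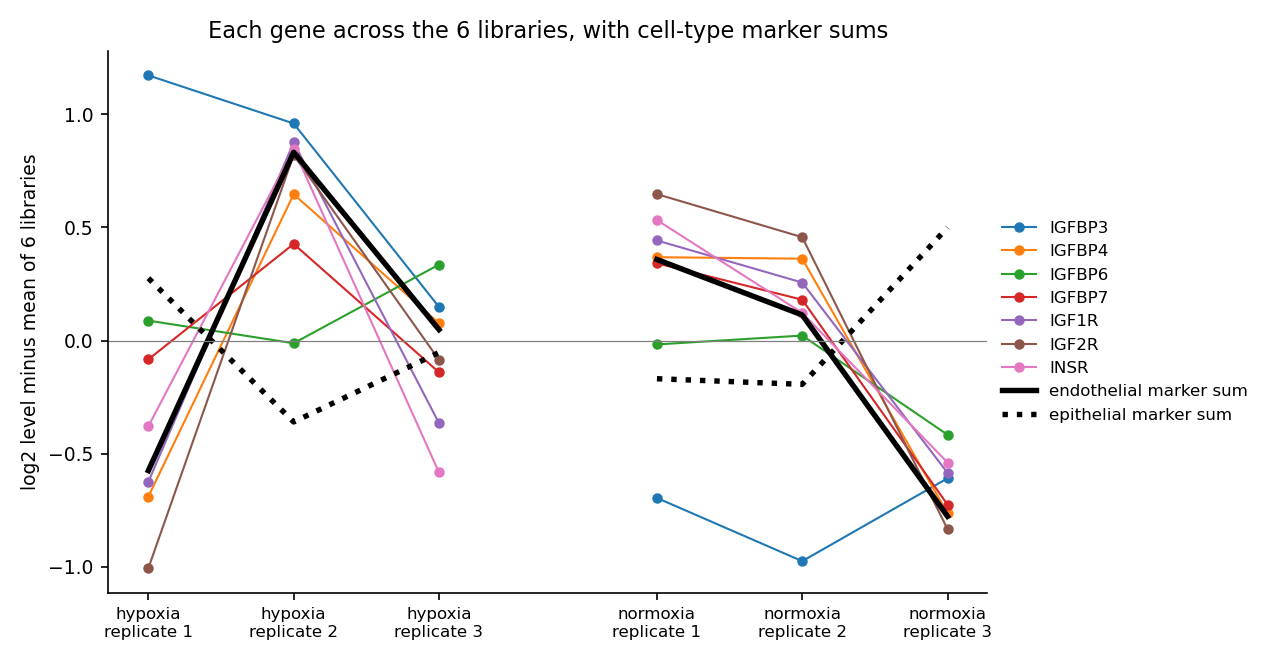
Log2 level of each tested gene minus its mean over the 6 libraries (y axis), by library (x axis, hypoxia left), with the summed endothelial markers as a thick solid line and the summed epithelial markers as a thick dotted line; lines only join the points of 1 gene, as replicates have no order. The receptors, IGFBP4 and IGFBP7 are highest in hypoxia replicate 2, as is the endothelial sum at 1619 FPKM, while IGFBP3 is above its mean in the hypoxia libraries and below it in the normoxia libraries.

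The transcripts most like 2 of the members were found by Pearson correlation of log2 levels over the 6 libraries, among 5593 genes averaging 5 FPKM or more. For IGFBP4 these were PC (pyruvate carboxylase, r = 0.998), PECAM1 (an endothelial adhesion molecule, r = 0.997) and PPP1R16B (r = 0.996), and 209 genes exceeded 0.95. For IGFBP3 they were the processed pseudogene ENSG00000186076 (r = 0.986), F2RL1 (protease-activated receptor 2, r = 0.979) and CATSPER1 (r = 0.973), and 10 genes exceeded 0.95. These coefficients describe 6 libraries that share the GC and marker trends above. The genes named have the highest of 5593 coefficients, each over only 6 values. How many unrelated genes would exceed 0.95 was not computed. F2RL1 and CATSPER1 had limma log2 differences of 0.48 and 0.62, and neither passed.

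The wider IGF pathway was followed in 8 lists of 69 genes, of which 61 were in the table and 50 were tested. None of the 50 passed limma or DESeq2 in either direction, and their median log2 difference was -0.02. At the groups' edges, 2 genes were higher and 2 lower in every hypoxia library, beside 4.77% and 2.72% of all genes tested. The ligand genes IGF1, IGF2 and INS were not analysed here.

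Among proteases of the binding proteins and their inhibitors (0 of 6 tested passed, median 0.29), STC1 had the largest difference. STC1 encodes stanniocalcin-1, which with its relative STC2 inhibits the IGFBP4 protease PAPP-A. It had 1238, 1330 and 1169 scaled reads in hypoxia replicates 1, 2 and 3, against 334, 322 and 855 in normoxia replicates 1, 2 and 3. The hypoxia libraries lay close together and normoxia replicate 3 stood apart from its group. The log2 difference was 1.45 (95% interval 0.57 to 2.33, adjusted p = 0.941 by limma, 0.356 by DESeq2). It passed in 1 of 17 alternatives, the limma fit without normoxia replicate 3, at 1.90 with an adjusted p of 0.0222. Over all genes 24 passed in that fit, against 10 in the fit reported. The STC1 log2 difference ran from 1.21 to 1.90 over the alternatives. STC2 averaged 663 ± 114 in hypoxia and 541 ± 106 in normoxia, and the lysosomal protease CTSD 6482 ± 1660 and 5132 ± 2473. PAPPA itself averaged 620 ± 219 in hypoxia and 701 ± 204 in normoxia.

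Among other genes with an IGFBP-type domain (0 of 6 passed, median 0.25), the CCN family member CCN5 had 324, 395 and 423 scaled reads in hypoxia, against 240, 231 and 176 in normoxia. Its groups did not overlap, and the log2 difference was 0.80 (95% interval 0.20 to 1.40, adjusted p = 1.00). CCN3 was lower in every hypoxia library, at 56.6 ± 12.5 in hypoxia and 76.8 ± 3.36 in normoxia, and its log2 difference was -0.43 (adjusted p = 1.00). ESM1, an endothelial proteoglycan, ranged from 356 to 2308 in hypoxia and from 203 to 2432 in normoxia. Among cell-surface partners of the binding proteins (0 of 4 passed, median 0.13), the integrin chains ITGB1 and ITGA5 differed by 0.26 and -0.14, and LRP1, a receptor reported for IGFBP3, by 0.21. The mRNA-binding proteins IGF2BP1, IGF2BP2 and IGF2BP3 differed by -0.27, -0.03 and 0.10 (0 of 3 passed, median -0.03).

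Downstream of the receptors (0 of 12 tested passed, median -0.14), the largest differences were downward. PIK3R3, a regulatory subunit of phosphoinositide 3-kinase, had 112, 133 and 248 scaled reads in hypoxia, against 334, 356 and 159 in normoxia. Its log2 difference was -0.74 (95% interval -1.72 to 0.25, adjusted p = 1.00). FOXO1, the transcription factor that insulin and IGF signalling keeps out of the nucleus, had 96.4, 264 and 114 in hypoxia, against 217, 257 and 233 in normoxia. Hypoxia replicate 2 was the highest library and the other hypoxia libraries lay below all normoxia libraries, and the log2 difference was -0.67 (95% interval -1.58 to 0.24, adjusted p = 1.00). The catalytic subunit PIK3CB differed by -0.29. The insulin receptor substrates were weakly expressed and below the filter, IRS1 at 45.0 ± 17.8 scaled reads in hypoxia and 36.3 ± 18.1 in normoxia, and IRS2 at 11.9 ± 7.70 and 15.5 ± 9.53.

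Brakes on receptor signalling (0 of 11 passed, median -0.13) held 1 gene without overlap, the insulin receptor phosphatase PTPN1, at 2085 ± 109 scaled reads in hypoxia and 2437 ± 113 in normoxia. The PTPN1 log2 difference was -0.22 (95% interval -0.64 to 0.19, adjusted p = 1.00), and the gene is named after its values were seen. SOCS1 and SOCS2, suppressors of cytokine signalling, differed by -0.40 and -0.30, and the ubiquitin ligase NEDD4 by 0.33 (-0.02 by DESeq2, the opposite sign). In the list of receptor processing and mannose 6-phosphate sorting (0 of 8 passed, median -0.03), the sorting adaptors GGA3 and GGA1 differed by -0.38 and -0.20 and the proreceptor-cleaving protease FURIN by -0.22, each with an adjusted p of 1.00.

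**Figure D5:**
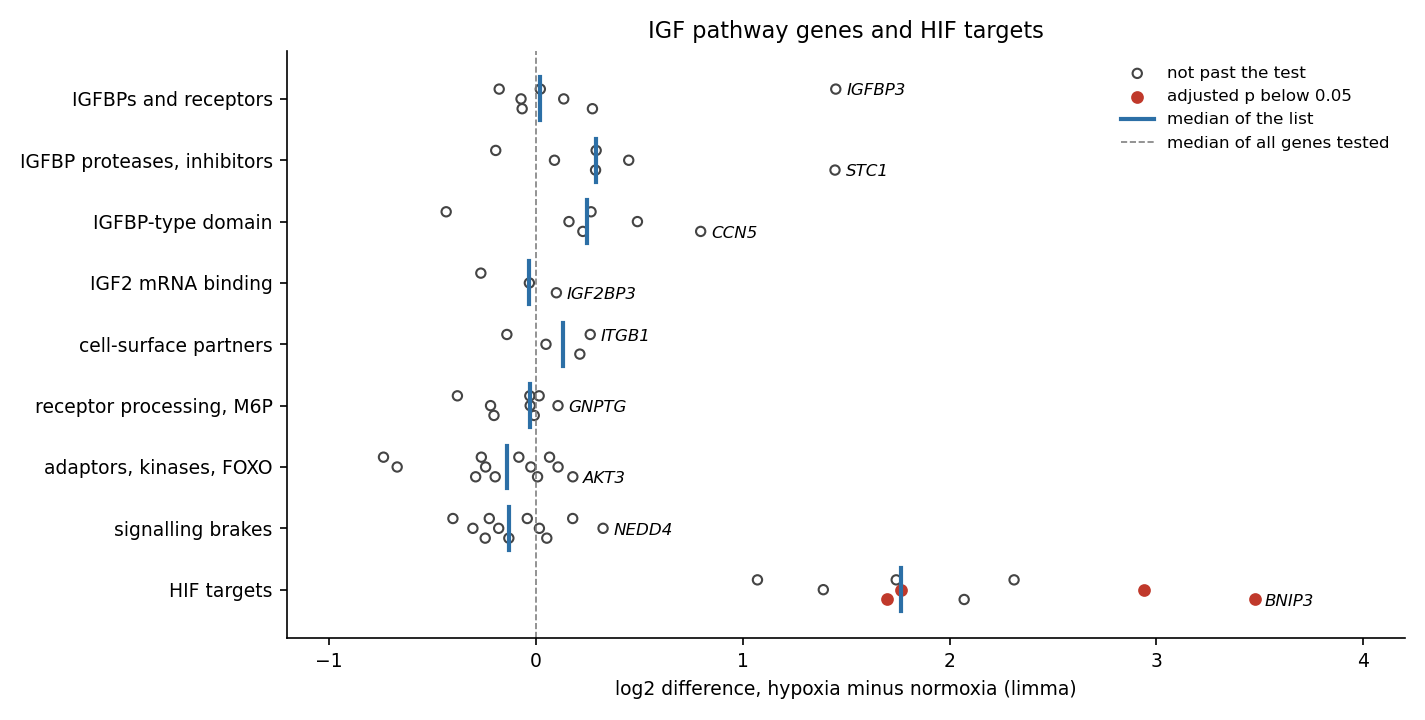
Log2 difference of hypoxia minus normoxia by limma (x axis) for each tested gene of the IGF lists and of the HIF target list (rows), with filled red points for genes past an adjusted p of 0.05, blue bars for list medians and a dashed line for the median of all genes tested; the gene with the highest value in each row is named. IGFBP3 and STC1 lie at 1.45, beside HIF targets with a median of 1.77, and only HIF targets are filled.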

How the data were processed

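The deposited table gives 1 value per gene and library for 3 hypoxia and 3 normoxia libraries. The authors' values are a signal of whole reads per gene divided by 1 size factor per library (0.944 to 1.06): within a library 100% were whole multiples of 1 step (tolerance 0.05 of a step), with no division by gene length, although the table is named for FPKM. The submitters' processing notes list CASAVA, HISAT2 2.0.5, featureCounts 1.5.0-p3 and the mouse build mm9, which cannot apply to human Ensembl identifiers. Annotation, human build and strand setting were not given in the sources used here.

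Reads were recovered from the steps. Values were divided by merged exon length (GENCODE 29, matched by identifier, 22153 of 22153; symbols for 21988) and by the mean library total, giving the FPKM scale. Genes at 1 FPKM or more in at least 3 libraries were fitted as log2(FPKM + 0.1) with limma 3.58.1 (R 4.3.3; trend and robust variances; two-sided; Benjamini-Hochberg over all genes tested). Log2 differences on this scale understate those of low genes. DESeq2 1.42.0 and edgeR 4.0.16 (quasi-likelihood test, Benjamini-Hochberg) on recovered reads were alternatives. The limma, DESeq2 and edgeR steps were tested on simulated data. Means ± SD are of scaled values, n = 3. No label says that replicates were separate cultures, and p-values then reflect only how far these libraries spread, which may be technical.

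Members and lists were chosen with earlier results of these data known. Named were the members, and per list genes past the test and the 3 tested genes with the largest absolute log2 difference. PAPPA, IRS1, IRS2, PTPN1 and the single marker genes fall outside that rule and were named after their values were seen. Protein sequences were not used here.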

Additional observations from a re-analysis of the deposited data

How the results depend on the processing

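IGFBP3 and IGFBP6 kept a positive log2 difference in every alternative in which they were tested, IGFBP3 from 1.04 (pseudocount 1) to 1.75 (without hypoxia replicate 3) and IGFBP6 from 0.13 to 0.35. IGFBP3 passed in 1 of 16 alternatives, DESeq2, where the number of members called was 1, and its adjusted p otherwise ranged from 0.126 to 1.00. It was not tested with the filter of 5 FPKM. The number of genes past the test, 10 in the fit reported, was 4 with no filter, 58 by DESeq2, 47 with the GC-slope covariate and 1 to 24 with 1 library left out. With the replicate block it was 19, and no member passed. Same-numbered libraries had correlations of their deviations of -0.40, 0.24 and 0.22, and hypoxia replicate 2 was closest to normoxia replicate 1 (0.61), so the numbers were not taken as pairs. In the pathway lists 0 genes passed, and 0 to 1 with 1 library left out (STC1 without normoxia replicate 3).

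The sign of small differences turned: IGFBP4 was -0.053 with equal library totals and -0.073 after the GC and length correction, IGF1R 0.018 by DESeq2, and INSR 0.00545 by DESeq2 and 0.015 after the GC and length correction. With 1 library left out the log2 difference ran from -0.35 to 0.37 for IGFBP4, -0.19 to 0.34 for IGFBP7, -0.51 to 0.21 for IGF1R, -0.63 to 0.27 for IGF2R and -0.33 to 0.18 for INSR. INSR was under the filter, and not tested, without hypoxia replicate 2, normoxia replicate 1 or normoxia replicate 2, where its ratio of mean scaled reads, hypoxia over normoxia, was 0.669, 1.21 and 1.01. The cause was not tested. IGFBP4's share of the pool in hypoxia was 35.8%, 30.9% with longest-transcript lengths and 31.5% to 40.3% with 1 library left out. The extended 6-base motif (ACGTGC or GCGTGC, both strands) was present in windows of 3 members and in 18.9% of all windows, beside 4 members for the core. Reads of IGFBP1, IGFBP2 and IGFBP5 were too few for any comparison, and with 3 libraries a group the intervals of the receptors reach beyond a 2-fold decrease and to about a 2-fold increase.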
